A study of Mus musculus with 6 samples.

Results

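The NMDA receptor subunit genes Grin1, Grin2a, Grin2b, Grin2d and Grin3a and the metabotropic glutamate receptor genes Grm3, Grm5, Grm7 and Grm8 were followed in primary cell cultures of mouse fetal cortex. These 9 genes were found by their mouse symbols among the 43346 genes of the count table, through their Ensembl identifiers. The cells came from fetuses at gestational day 15.5, labelled as carrying Sry and the Cyp19-EGFP transgene in both groups, and were treated with DMSO vehicle or with 1 mM 10HDA (10-hydroxy-2-decenoic acid), a fatty acid of royal jelly. C57BL/6 embryos are named in the methods instead. How many embryos went into a culture and how long the cells were treated are not given in the sources used here. There were 3 RNA-seq libraries per treatment, and each of cultures 1, 3 and 4 gave 1 vehicle and 1 10HDA library.

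Glutamate is the main excitatory transmitter of the cortex. NMDA receptors are cation channels of 4 subunits that open when glutamate and a co-agonist, glycine or D-serine, bind together while the membrane is depolarized, and they carry calcium into the cell. Metabotropic glutamate receptors act more slowly through G proteins. Those of group I, such as Grm5, couple to Gq and phospholipase C, whereas those of group II, such as Grm3, and of group III, such as Grm7 and Grm8, couple to Gi/o and lower cyclic AMP. In fetal cortex the Grin2b and Grin2d subunits are known to precede Grin2a, which rises after birth, and Grin3a is known for its peak in early postnatal life.

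The libraries held from 9144736 to 13367194 counts on genes, at which 3 counts correspond to 0.22 to 0.33 CPM (counts per 1000000 counts of a library). That limit covers counting error only. Values below are CPM after TMM scaling. Markers of neurons were present at summed levels of 8931 to 9597 CPM with vehicle and 7539 to 8512 CPM with 10HDA, markers of astrocytes at 1300 to 1596 and 974 to 1213 CPM, and markers of microglia at no more than 1.23 CPM in any library, with Tmem119 at 0 in all 6. Both libraries of culture 1 stood apart in 4 Y-linked genes (Uty, Kdm5d, Eif2s3y and Ddx3y), whose summed level was 9.07 and 9.30 CPM against 97.8 to 136 CPM in the other 4 libraries, although all 6 are labelled SRY+. The vehicle library of culture 1 also differed from the other vehicle libraries by gene length, as the plot of level differences by gene length shows. Its median log2 difference from their mean was 0.23 over 1862 tested genes with models under 2 kb and -0.33 over 798 genes over 10 kb. Values without culture 1 and after removal of the length trend are therefore given beside the results of the 9 receptor genes. For the other genes and the lists they are not given.

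**Figure D1:**
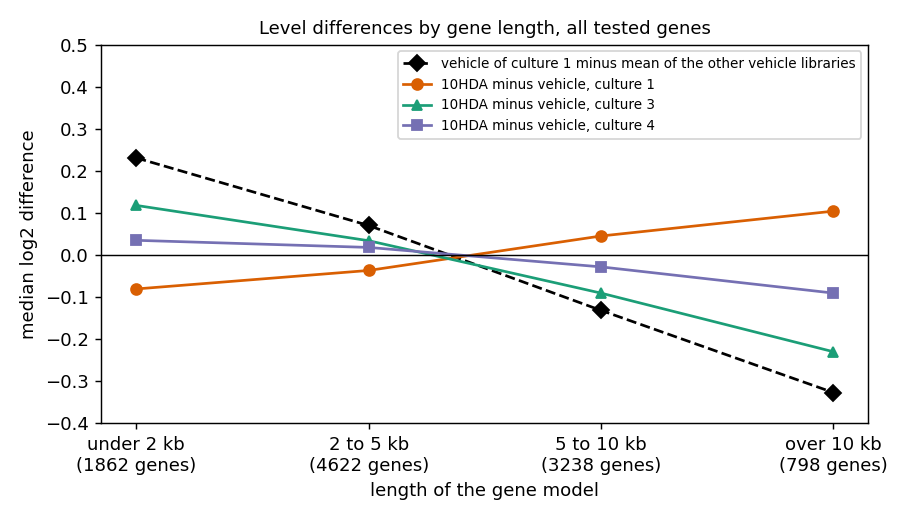
Median log2 difference (y axis) of all tested genes in 4 classes of gene model length (x axis, with the number of genes). Black diamonds compare the vehicle library of culture 1 with the mean of the other vehicle libraries and run from 0.23 in the shortest to -0.33 in the longest class. Coloured symbols are 10HDA minus vehicle within each culture, which are higher for longer genes in culture 1 and lower for longer genes in cultures 3 and 4.

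The promoters of 3 genes are shown because they belong to members that lay on opposite sides of 0 in the comparison described further on, Grm3 and Grm7 lower with 10HDA and Grin2d higher. Each runs from 250 bases before to 50 bases after a RefSeq transcript start, 5′ to 3′ on the strand of the gene, on GRCm38.p6. The capitals mark GGGCGG, the GC box, on either strand, and joined capitals are 2 adjoining boxes. The windows are chr5:9725303-9725602 on the minus strand for Grm3, chr6:110645262-110645561 on the plus strand for the first of the entries of Grm7 and chr7:45866632-45866931 on the minus strand for Grin2d. This Grin2d window lies inside the GENCODE span of the gene, whose 5′ end is at 45878378, so it belongs to an internal transcript start.
Grm3: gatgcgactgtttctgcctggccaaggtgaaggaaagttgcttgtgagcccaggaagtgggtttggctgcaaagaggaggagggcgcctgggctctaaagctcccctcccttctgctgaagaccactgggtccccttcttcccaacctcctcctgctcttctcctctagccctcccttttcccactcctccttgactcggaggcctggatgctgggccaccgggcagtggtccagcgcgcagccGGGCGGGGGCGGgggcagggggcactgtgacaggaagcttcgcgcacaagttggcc
Grm7: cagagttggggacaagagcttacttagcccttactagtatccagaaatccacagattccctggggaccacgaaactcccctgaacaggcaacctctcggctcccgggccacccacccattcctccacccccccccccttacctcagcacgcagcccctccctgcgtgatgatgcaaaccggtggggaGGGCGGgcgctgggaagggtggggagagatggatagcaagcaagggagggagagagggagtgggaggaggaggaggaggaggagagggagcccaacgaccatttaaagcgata
Grin2d: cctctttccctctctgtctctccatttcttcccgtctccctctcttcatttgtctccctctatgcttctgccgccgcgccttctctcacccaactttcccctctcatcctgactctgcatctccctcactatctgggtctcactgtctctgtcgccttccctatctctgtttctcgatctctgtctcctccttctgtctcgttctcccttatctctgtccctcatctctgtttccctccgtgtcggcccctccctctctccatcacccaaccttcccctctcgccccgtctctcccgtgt
The window of Grm3 held 2 GC boxes, that of Grm7 held 1 and that of Grin2d held 0. A GC box was found in 35.7% of the 32851 promoter windows of the table. The cyclic AMP response element TGACGTCA was in 1.79% and the binding motif of NRF1 in 0.971% of all windows, on either strand, and none of the 3 windows above held either. Their GC contents were 63.7%, 61.0% and 56.0%, against a median of 52.7% over all windows. These matches describe letters only. The promoter table held 5 of the 9 genes, these 3 and Grin1 and Grm8. The Grin1 window held 1 GC box and the Grm8 windows held 1, 0 and 0. Grin1 and Grm8 also had log2 fold changes under 0. The 3 windows shown were picked by direction, and a link of GC boxes with direction was not tested.

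Per length of the gene model, Grm5 and Grin2b were the most abundant of the 9 receptors in vehicle cultures. Grm5 had 31.6 ± 6.56 CPM per kb and Grin2b had 31.1 ± 9.52 CPM per kb (SD, n = 3 each), and their libraries overlapped. Grin1, whose product is the obligatory, glycine-binding subunit of every NMDA receptor, followed with 14.7 ± 2.74 CPM per kb. Grm3 had 8.64 ± 1.99, Grm7 had 5.47 ± 0.61, Grin3a had 4.78 ± 0.60 and Grin2d had 3.04 ± 0.17 CPM per kb. Grin2a and Grm8 were lowest, with 0.69 ± 0.24 and 0.52 ± 0.071 CPM per kb. Within this order of vehicle levels, the libraries overlapped between Grm5 and Grin2b, between Grm7 and Grin3a, and between Grin2a and Grm8, and the other neighbours were separated in all 3 vehicle libraries. With 10HDA, Grin3a at 3.18 ± 0.40 and Grin2d at 3.47 ± 0.45 CPM per kb overlapped, and Grm7 and Grin3a no longer did. The gene models set these values in part. The model of Grin2a in the count table spans 5296 exonic bases, against 17933 in GENCODE release M21, so that reads from much of its annotated exon sequence lay outside the counted model.

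**Figure D2:**
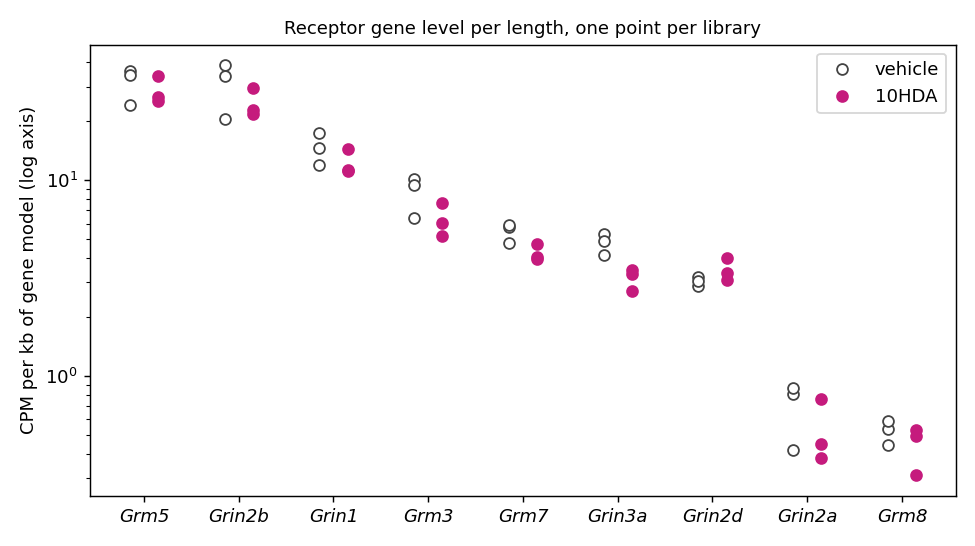
CPM per kb of gene model on a log axis for the 9 receptor genes, ordered by their vehicle mean, with 1 point per library. Open points are vehicle and filled points 10HDA. Grm5 and Grin2b lie highest, at vehicle means of 31.6 and 31.1, and Grin2a and Grm8 lie lowest, at 0.69 and 0.52.

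The comparison of 10HDA with vehicle asks whether the treatment shifted the RNA of the receptors that carry and modulate glutamate signals. Of the 9 genes, 7 reached at least 10 CPM in at least 3 libraries and were tested among 10520 genes. Their levels were mostly lower with 10HDA, by a median log2 fold change of -0.33 over the 7, with 6 lower and 1 higher, beside a median of -0.0095 and 52.1% lower over all genes tested. After removal of the length trend the median over the 7 was -0.22, or -0.21 with culture as a block, and without culture 1 it was -0.40. Grin3a differed most, at -0.59. None passed an adjusted p of 0.1 in edgeR's quasi-likelihood test, in which 0.627% of all genes tested passed. At an unadjusted p under 0.05 there were 3 (Grin3a, Grm7 and Grm3), all lower, where 5.67% of all genes were lower with such a p and 10.1% had one in either direction. DESeq2 and edgeR's likelihood ratio test each passed 1 of the 7, Grin3a, with 1.62% and 2.07% of all genes, and limma-voom passed 0, with 0.627% of all genes. With culture as a block, which sets each 10HDA library against the vehicle library of its own culture, 3 of the 7 passed, Grin3a, Grm3 and Grm7, all lower, where 5.08% of all genes passed as lower and 8.98% in either direction. In 4 of the 7 (Grin1, Grin3a, Grm3 and Grm7) the 10HDA library was below the vehicle library in all 3 cultures, as in 20.9% of all genes.

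The calls varied with the libraries and the filter. Grin3a alone passed after removal of the length trend, where 0.875% of all genes passed, in DESeq2 with culture as a block (3.70%), on leaving out the vehicle library of culture 1 (1.01%) and on leaving out the 10HDA library of culture 4 (3.33%). Without a filter on low counts Grin3a and Grm3 passed (2.37% of all genes). With the block, Grin3a, Grm3 and Grm7 passed after removal of the length trend (12.6%), and Grin2b, Grin3a and Grm3 in cultures 3 and 4 alone (6.76%).

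Fewer cells of a type and less RNA per cell cannot be told apart in RNA from whole cultures. Beside these values, 11 of 12 neuron markers tested had a log2 fold change under 0, with a median of -0.24 and 0 past the threshold. Over all genes tested, 0.627% were past this threshold. In DESeq2 2 neuron markers passed (1.62% of all genes), in edgeR's likelihood ratio test 3 (2.07%) and in limma-voom 0 (0.627%). An unadjusted p under 0.05 was found for 5 (10.1% of all genes in either direction). Of 10 astrocyte markers tested, 9 had a log2 fold change under 0, with a median of -0.62 and 5 past the threshold. The medians of excitatory neuron and interneuron markers were -0.091 over 12 genes, 1 of them past the threshold, and -0.20 over 11 genes, 0 past it. For the oligodendrocyte lineage the median was -0.17 over 8 genes with 1 past the threshold. This list was split, with 5 genes under 0 and 3 above. Pdgfra, Sox10 and Cspg4 had -1.21, -1.44 and -0.92, and these 3 passed with the block, where 5.08% of all genes passed as lower. Mbp and Cnp had -0.059 and -0.28, whereas Olig1, Olig2 and Mog had 0.059, 0.24 and 0.11. For dividing progenitors the median was 0.020 over 8 genes with 0 past the threshold. Of 10 markers of endothelial cells, pericytes and fibroblasts 1 was tested, Pdgfrb of pericytes, which passed at -1.07. The summed level of the 10 was 28.0 to 29.1 CPM with vehicle and 14.0 to 17.1 CPM with 10HDA. Most of this sum was Pdgfrb and Dcn, with means of 15.7 and 9.18 CPM with vehicle and 7.38 and 4.49 CPM with 10HDA. The other markers had means of at most 1.08 CPM, that of Col1a1 with vehicle, and went in both directions. The part of cell composition in the differences of the receptor genes was not tested.

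**Figure D3:**
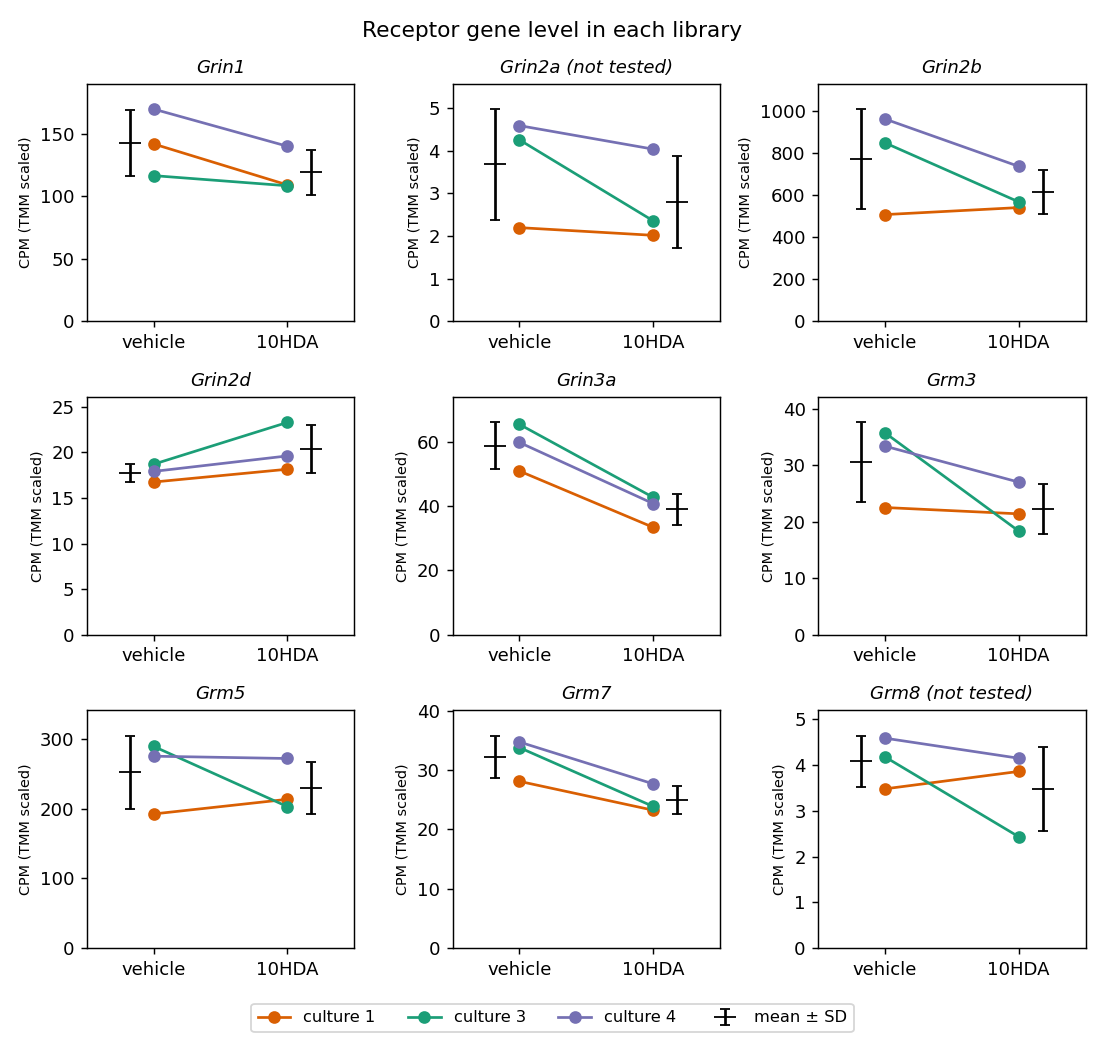
CPM after TMM scaling (y axis, from 0) of the 9 receptor genes in each library, with lines that join the vehicle and the 10HDA library of a culture. Black bars are the mean ± SD of 3 libraries. Only Grin3a and Grm7 have all 3 10HDA libraries below all 3 vehicle libraries, and Grin2d is slightly higher in every culture without separating the groups.

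Grin3a encodes GluN3A, a glycine-binding subunit that lowers the calcium permeability of NMDA receptors and is known for holding back synapse maturation. Its gene lies at chr4:49661611-49845744 on the minus strand of GRCm38. The vehicle libraries of cultures 1, 3 and 4 had 50.9, 65.4 and 59.8 CPM, and the 10HDA libraries had 33.4, 42.8 and 40.8 CPM. All 3 10HDA libraries lay below all 3 vehicle libraries, as they did in 7.44% of all genes tested, and the within-culture log2 differences, -0.61, -0.61 and -0.55, were close together. The log2 fold change was -0.59 (SE 0.13, edgeR quasi-likelihood adjusted p = 0.12), and with culture as a block it was -0.59 (SE 0.10, edgeR quasi-likelihood adjusted p = 0.00053). Grin3a ranked 77 by p among the 10520 genes without the block and 72 with it. Without culture 1 the log2 fold change was -0.57 (edgeR quasi-likelihood adjusted p = 0.40, 0.0059 with the block). After removal of the length trend it was -0.51 (edgeR quasi-likelihood adjusted p = 0.090).

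Grin1 was lower in 3 of 3 cultures, but its libraries overlapped. It lies at chr2:25291181-25319187 on the minus strand. With vehicle, cultures 1, 3 and 4 had 142, 117 and 170 CPM, and the 10HDA libraries had 109, 108 and 140 CPM. The 10HDA library of culture 4 was above the vehicle library of culture 3. The log2 fold change was -0.26 (SE 0.15, edgeR quasi-likelihood adjusted p = 0.56), and 0.12 was its adjusted p with the block. It was -0.19 without culture 1 and -0.22 after removal of the length trend, and it ran from -0.099 without the vehicle library of culture 4 to -0.39 without the 10HDA library of culture 4. An antisense gene, Grin1os, shares 1307 exonic bases with Grin1 and was counted at 2.84 to 3.65 CPM. The library kit keeps strand, but the strand setting of the counting is not given in the sources used here, so reads of the pair cannot be told apart where they overlap.

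Grin2b encodes the glutamate-binding GluN2B subunit, which predominates before birth. Its gene lies at chr6:135713233-136173511 on the minus strand, and its model of 24.8 kb is the longest of the 9. The vehicle libraries of cultures 1, 3 and 4 had 507, 847 and 960 CPM, and the 10HDA libraries had 540, 567 and 735 CPM. The vehicle library of culture 1 was the lowest of the 6. Grin2b was thus lower with 10HDA in cultures 3 and 4, by log2 differences of -0.58 and -0.38, and not in culture 1, at 0.092. Over all libraries the log2 fold change was -0.33 (SE 0.21, edgeR quasi-likelihood adjusted p = 0.60), with an adjusted p of 0.12 with the block. With cultures 3 and 4 alone, compared within culture, it was -0.46 (block, edgeR quasi-likelihood adjusted p = 0.0059). The length trend was not removed in that fit, and genes over 10 kb had median log2 differences of -0.23 and -0.091 in cultures 3 and 4. After removal of the length trend from all libraries the log2 fold change of Grin2b was -0.17 (edgeR quasi-likelihood adjusted p = 0.53), or -0.16 with the block (adjusted p = 0.19). When single libraries were left out, Grin2b ran from -0.12 without the vehicle library of culture 4 to -0.54 without the vehicle library of culture 1.

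Grin2d was the 1 member tested that was higher with 10HDA. It encodes GluN2D, a subunit of slowly deactivating receptors that in cortex is prominent in interneurons, and lies at chr7:45831883-45878378 on the minus strand. With vehicle, cultures 1, 3 and 4 had 16.8, 18.7 and 17.9 CPM, and the 10HDA libraries had 18.2, 23.3 and 19.6 CPM. It was higher in 3 of 3 cultures, yet the 10HDA library of culture 1 was below the vehicle library of culture 3. The log2 fold change was 0.20 (SE 0.14, edgeR quasi-likelihood adjusted p = 0.64, 0.41 with the block). It was 0.25 without culture 1 and 0.22 after removal of the length trend, and 0.083 without the 10HDA library of culture 3. An antisense gene, Gm45441, shares 643 exonic bases with Grin2d and was not among the genes counted. As for Grin1, reads of the pair cannot be told apart where they overlap.

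Grin2a encodes GluN2A, the subunit of the mature cortex. It lies at chr16:9567898-9995560 on the minus strand and had 23 to 55 counts per library, too few for the filter. Cultures 1, 3 and 4 had, with vehicle, 2.20, 4.25 and 4.59 CPM, and the 10HDA libraries had 2.02, 2.36 and 4.04 CPM. It was lower in 3 of 3 cultures, with overlapping groups. In the fit with genes of at least 1 CPM in at least 3 libraries, its log2 fold change was -0.42 (SE 0.32, edgeR quasi-likelihood adjusted p = 0.67). It was -0.49 without culture 1, -0.42 after removal of the length trend, and -0.75 to -0.24 when single libraries were left out, lowest without the 10HDA library and highest without the vehicle library of culture 4. The log2 ratio of Grin2a to Grin2b counts does not depend on library scaling. It sets a model of 5296 bases against one of 24.8 kb, and the length trend was not removed from it. The ratio was -7.71 ± 0.099 in vehicle and -7.80 ± 0.28 in 10HDA libraries (SD, n = 3 each). The difference was -0.090 (exact permutation test, two-sided, p = 0.60). Compared within culture, by an exact sign-flip permutation test, p was 0.50. The smallest p is 0.1 for 3 libraries against 3 and 0.25 for 3 pairs.

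Per length, Grin2b made up 56.4 ± 7.25% of the summed levels of the 5 NMDA subunits with vehicle and 55.9 ± 1.55% with 10HDA. Grin1 made up 27.7 ± 6.42% and 27.8 ± 1.03%. The share of Grin3a was 8.95 ± 1.27% with vehicle and 7.23 ± 0.96% with 10HDA, and that of Grin2d was 5.73 ± 1.01% and 7.95 ± 1.49% (SD, n = 3 each). Within cultures, the share of Grin3a was lower with 10HDA in 3 of 3 and that of Grin2d higher in 3 of 3. As groups, all these shares overlapped between the treatments, and those of Grin1 and Grin2b spread more widely over the vehicle than over the 10HDA libraries. The summed CPM of the 5 genes ran from 718 to 1212 with vehicle and from 703 to 940 with 10HDA.

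**Figure D4:**
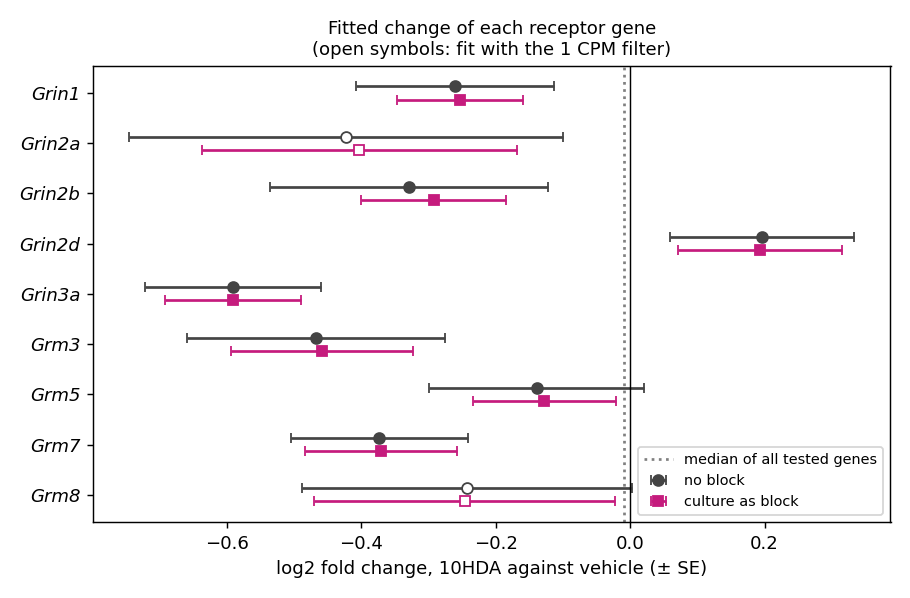
Log2 fold change of 10HDA against vehicle (x axis) with its standard error for the 9 receptor genes, without a culture term (circles) and with culture as a block (squares). Open symbols are genes under the filter, from the fit with the 1 CPM filter, and the dotted line is the median of all tested genes, -0.0095. Grin3a lies lowest at -0.59 and Grin2d alone lies above 0.

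Among the metabotropic receptors, Grm5 was the most abundant. It is the group I receptor of cortical neurons and also of young astrocytes, and lies at chr7:87584168-88134907 on the plus strand. The vehicle libraries of cultures 1, 3 and 4 had 192, 289 and 275 CPM, and the 10HDA libraries had 213, 203 and 272 CPM. As for Grin2b, the vehicle library of culture 1 was the lowest of the 6, and the within-culture log2 differences were 0.15, -0.51 and -0.017. The log2 fold change was -0.14 (SE 0.16, edgeR quasi-likelihood adjusted p = 0.77, 0.55 with the block). Its direction rested on culture 3, without which it was 0.053 (edgeR quasi-likelihood adjusted p = 0.97). It was -0.23 without culture 1 and -0.10 after removal of the length trend.

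Grm3, a group II receptor of neurons and astrocytes, lies at chr5:9485541-9725170 on the minus strand. Cultures 1, 3 and 4 had, with vehicle, 22.5, 35.7 and 33.4 CPM, and the 10HDA libraries had 21.4, 18.4 and 27.0 CPM. It was lower in 3 of 3 cultures by unequal amounts, with log2 differences of -0.074, -0.96 and -0.30, and the groups overlapped because the vehicle library of culture 1 was low. The log2 fold change was -0.47 (SE 0.19, edgeR quasi-likelihood adjusted p = 0.45), with an adjusted p of 0.044 with the block. Without culture 3 it was -0.21 (edgeR quasi-likelihood adjusted p = 0.87, without the block), and without culture 1 it was -0.60 (adjusted p = 0.58), or -0.62 with the block (adjusted p = 0.014). After removal of the length trend it was -0.48, or -0.47 with the block (edgeR quasi-likelihood adjusted p = 0.35 and 0.051). The log2 ratio of Grm3 to Grm5 counts was -3.05 ± 0.039 under vehicle and -3.37 ± 0.083 under 10HDA (SD, n = 3 each). The difference was -0.32 and the ratios of the 3 10HDA libraries lay below those of the 3 vehicle libraries (exact permutation test, two-sided, p = 0.10, the smallest for 3 against 3). The exact permutation test within culture gave p = 0.25, the smallest for 3 pairs. From this ratio, too, the length trend was not removed.

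Grm7, a group III receptor of presynaptic terminals with low affinity for glutamate, lies at chr6:110645581-111567230 on the plus strand. With vehicle, cultures 1, 3 and 4 had 28.1, 33.8 and 34.7 CPM, and the 10HDA libraries had 23.3, 23.9 and 27.7 CPM. The 10HDA libraries lay below the vehicle libraries, as they did in 7.44% of all genes tested. The highest of them, 27.7, came close to the lowest vehicle value, 28.1. The log2 fold change was -0.37 (SE 0.13, edgeR quasi-likelihood adjusted p = 0.38), with an adjusted p of 0.052 with the block. With cultures 3 and 4 alone it was -0.40 and, with the block, did not pass (edgeR quasi-likelihood adjusted p = 0.101). After removal of the length trend it was -0.35 with and without the block (edgeR quasi-likelihood adjusted p = 0.045 and 0.26). An antisense gene, Gm20387, shares 130 exonic bases with Grm7 and had 0.35 to 2.29 CPM.

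Grm8, also of group III, lies at chr6:27275119-28135178 on the minus strand and had 33 to 54 counts per library. Cultures 1, 3 and 4 had, with vehicle, 3.48, 4.18 and 4.59 CPM, and the 10HDA libraries had 3.86, 2.43 and 4.15 CPM. It was higher in culture 1 and lower in cultures 3 and 4. In the fit with the 1 CPM filter the log2 fold change was -0.24 (SE 0.25, edgeR quasi-likelihood adjusted p = 0.74). It was -0.44 without culture 1, -0.22 after removal of the length trend, and -0.029 without the 10HDA library of culture 3.

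**Figure D5:**
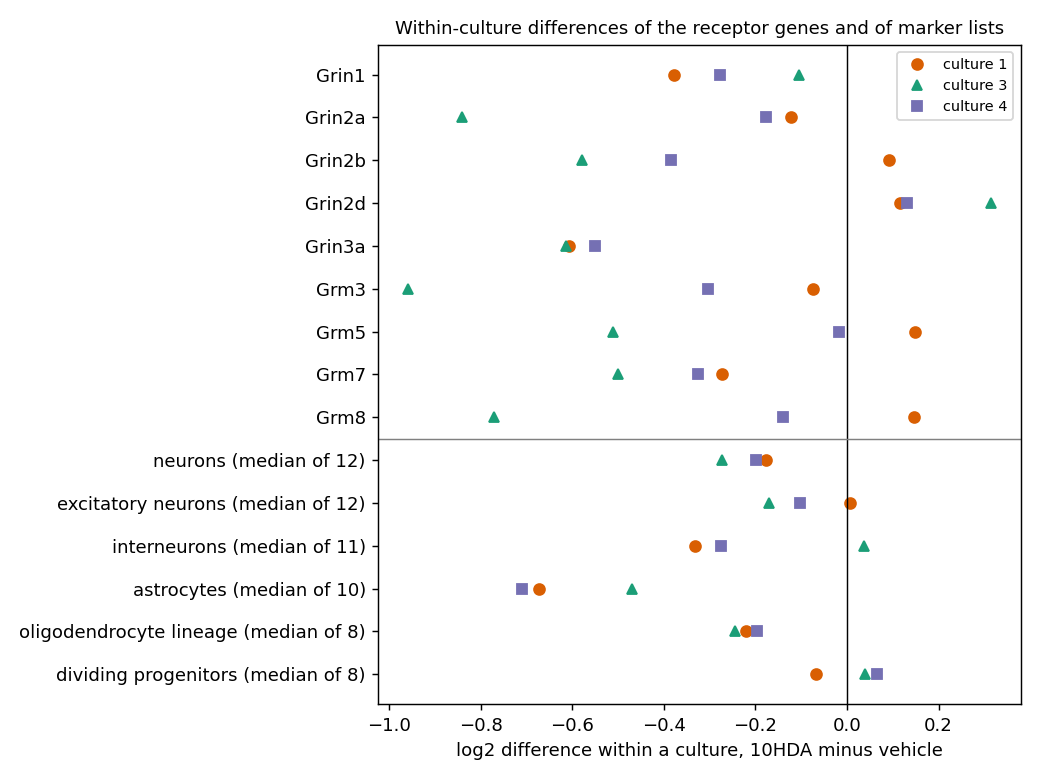
Log2 difference of 10HDA minus vehicle within cultures 1, 3 and 4 (x axis) for the 9 receptor genes and, under the grey line, the median over the tested genes of 6 lists of cell type markers. The cultures nearly coincide for Grin3a and spread widely for Grm3, and culture 1 lies above the other cultures for Grin2a, Grin2b, Grm3, Grm5, Grm7 and Grm8 but not for Grin1, Grin2d or Grin3a.

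The pattern of Grin2b over the 6 libraries was most like those of Klf7, Faxc and Apc, by the root mean square difference of the log2 deviations of 2 genes from their own means, which was 0.053, 0.061 and 0.062. That of Grm5 was most like those of Vps13d, Eea1 and Ash1l, with 0.035, 0.040 and 0.042. These genes were picked for this likeness over the same 6 libraries. The models of Klf7, Faxc and Apc span 8.13, 8.36 and 15.8 kb, and those of Vps13d, Eea1 and Ash1l 24.8, 7.84 and 13.1 kb. In each of these genes the vehicle library of culture 1 was the lowest of the 6. The part of the length trend in the likeness was not tested.

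Of the other NMDA and metabotropic receptor genes, 3 of 6 were tested and 0 of these 3 passed, also in DESeq2, the likelihood ratio test and limma-voom, with 0 at an unadjusted p under 0.05. Grm2, the other group II receptor, averaged 20.0 ± 0.15 CPM in vehicle and 23.8 ± 2.48 CPM in 10HDA libraries (SD, n = 3 each). Its fitted log2 fold change was 0.25 (edgeR quasi-likelihood adjusted p = 0.53). Its libraries did not overlap, and it was higher, where Grm3 was lower. Such a separation as higher was found for 627 of the 10520 genes tested. Grm4 of group III had a log2 fold change of -0.13. Grin2c, under the filter and named after its values were seen, had 1.83, 1.62 and 2.38 CPM with vehicle in cultures 1, 3 and 4 and 3.16, 3.54 and 3.14 CPM with 10HDA. Its libraries did not overlap, and in the fit with the 1 CPM filter its log2 fold change was 0.77 (SE 0.25, edgeR quasi-likelihood adjusted p = 0.30), or 0.79 with the block, where it passed (adjusted p = 0.081). The block passed 8.98% of all genes in the fit with the 10 CPM filter. Its share with the 1 CPM filter was not counted. Grin3b had 0.25 to 0.73 CPM and Grm6 at most 0.17 CPM over all libraries.

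The AMPA, kainate and delta receptor subunits, the other ion channel families of glutamate, were tested in 11 of 11 cases, of which 10 had a log2 fold change under 0, with a median of -0.22. None passed in edgeR's quasi-likelihood test or limma-voom (0.627% of all genes tested in each). In DESeq2 2 passed (1.62%) and in the likelihood ratio test 2 (2.07%). An unadjusted p under 0.05 was found for 4 (10.1% of all genes in either direction), and 3 passed with the block (8.98%). Grik3, Gria1 and Gria3 had the smallest p, with log2 fold changes of -0.50, -0.34 and -0.42 (edgeR quasi-likelihood adjusted p = 0.15, 0.24 and 0.28).

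Among 20 genes of the scaffolds, kinases and transport of NMDA receptors, 19 were tested, 15 had a log2 fold change under 0 and the median was -0.16. None passed in edgeR's quasi-likelihood test or limma-voom (0.627% of all genes tested in each). In DESeq2 2 passed (1.62%) and in the likelihood ratio test 2 (2.07%). An unadjusted p under 0.05 was found for 5 (10.1% of all genes in either direction), and 4 passed with the block (8.98%). Neto1, an auxiliary subunit of kainate receptors that also binds NMDA receptors, had 34.1, 50.9 and 48.1 CPM with vehicle in cultures 1, 3 and 4 and 26.8, 31.4 and 30.6 CPM with 10HDA. Its libraries did not overlap, a separation as lower that 7.44% of all genes tested had. The log2 fold change was -0.58 (edgeR quasi-likelihood adjusted p = 0.21, 0.0020 with the block). Camk2a, the kinase that calcium entry through NMDA receptors activates, had a log2 fold change of -0.44 (adjusted p = 0.19, 0.0069 with the block). Apba1, an adaptor in the transport of Grin2b vesicles, had -0.37 (adjusted p = 0.42, 0.014 with the block).

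For the partners and G protein transducers of the metabotropic receptors, 19 of 20 genes were tested, 14 had a log2 fold change under 0 and the median was -0.14. None passed in edgeR's quasi-likelihood test, DESeq2, the likelihood ratio test or limma-voom. An unadjusted p under 0.05 was found for 5, 4 lower and 1 higher (10.1% of all genes tested in either direction). With the block 3 passed (8.98% of all genes). Plcb4 and Plcb1, phospholipases C downstream of Gq, had log2 fold changes of -0.39 and -0.33 (edgeR quasi-likelihood adjusted p = 0.36 and 0.49, 0.055 and 0.053 with the block). Ncdn, or norbin, which binds Grm5, had -0.24 (adjusted p = 0.44).

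Of 12 genes for the supply and clearance of glutamate and its co-agonists, 9 were tested, with a median of -0.17, 6 under 0 and 3 above. None passed in edgeR's quasi-likelihood test or limma-voom (0.627% of all genes tested in each). In DESeq2 1 passed (1.62%) and in the likelihood ratio test 1 (2.07%). An unadjusted p under 0.05 was found for 3 (10.1% of all genes in either direction), and 2 passed with the block (8.98%). Slc17a7, the vesicular glutamate transporter of cortical projection neurons, had 65.7, 70.4 and 75.2 CPM with vehicle in cultures 1, 3 and 4 and 50.2, 57.2 and 50.5 CPM with 10HDA, a log2 fold change of -0.42 (edgeR quasi-likelihood adjusted p = 0.18, 0.013 with the block). Glul, the glutamine synthetase of astrocytes, had -0.28 (adjusted p = 0.38, 0.076 with the block). Slc6a9, the glycine transporter GLYT1, lay on the other side, with 0.28 (adjusted p = 0.45, 0.12 with the block).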

How the data were processed

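Counts on genes were analysed for 6 libraries, 3 per treatment. According to the methods and the labels, the authors aligned untrimmed 50 bp single-end reads to mm10 with Subjunc (Subread 1.4.4) and summarised them with featureCounts over the Gencode models. What they deposited are raw counts, not normalized, beside a gene length in bases. Each column was assigned by the library number in its name and in the sample title, and 0 further sample columns were left out. Symbols and coordinates are from GENCODE M21 (GRCm38), which named 98.0% of the identifiers. RefSeq gave the promoters, and 1 listed gene (Tamalin) was found under its RefSeq synonym Grasp.

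The filter asked for 10 CPM or more in 3 or more libraries. Kept genes were scaled by TMM and tested with edgeR 4.0.16 (quasi-likelihood, R 4.3.3) with Benjamini-Hochberg adjustment over all genes tested and a threshold of 0.1, as in the methods, which name no culture term. Each standard error (SE) was derived from the log2 fold change and its F statistic. Alternatives used DESeq2 1.42.0 and limma 3.58.1. The length trend was removed per library as a lowess, on log gene length, of the deviation of log2 CPM from its mean over libraries, entered as offsets. The labels place 1 library of each treatment in each culture, which pairs them. The deviations of paired libraries from their group means correlated across genes at 0.37, 0.24 and 0.62, against -0.45 to 0.18 otherwise. Within a treatment, libraries differed by more than counting noise (chi-square per gene of 5.82 to 22.6). Nothing more is stated on how the cultures relate, so p-values measure the spread between these libraries. The genes named are the 9 receptors, the 3 genes with the smallest p in each list (1 of these is not reported here), and the 3 genes nearest in pattern to the most abundant member of each family. The members and lists were chosen with earlier results of these data known. The scripts were tested on simulated data.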

Additional observations from a re-analysis of the deposited data

How the results depend on the processing

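Each of the 9 genes kept the direction of its fold change under every alternative run, except Grm5, which was 0.053 without culture 3 and otherwise ran from -0.28 to -0.0093. The median over the genes tested moved from -0.33 to between -0.45 and -0.12 when single libraries were left out, the latter without the vehicle library of culture 4, and was -0.25 with library size alone and -0.22 after removal of the length trend. The number of receptor genes past the threshold was 0, and 1 (Grin3a) in DESeq2, in the likelihood ratio test, in DESeq2 with culture as a block and after removal of the length trend. It was 2 (Grin3a and Grm3) without a filter, where 2.37% of all genes passed, and 3 with the replicate block, with the block after removal of the length trend, and with the block in cultures 3 and 4 alone (Grin2b, Grin3a and Grm3). Leaving out single libraries or cultures gave 0 to 1, the 1 being Grin3a without the vehicle library of culture 1 (edgeR quasi-likelihood adjusted p = 0.089) or without the 10HDA library of culture 4 (adjusted p = 0.066). Over all genes, 66 passed. There were 170 with DESeq2, 218 with the likelihood ratio test, 636 without a filter, 43 at a threshold of 0.05, 945 with the replicate block, 711 with the block in cultures 3 and 4 alone, 389 in DESeq2 with the block, 1325 with the block after removal of the length trend, and 0 to 350 without single libraries or cultures (0 without the 10HDA library of culture 1, with 469 at an unadjusted p under 0.05, and 0 without culture 3, with 725). Of the 66 calls with all libraries, 21 were higher and 45 lower (31.8% higher). With library size alone 21 were higher and 24 lower (46.7% higher). The log2 difference of the Grin2a to Grin2b ratio ran from -0.25 to 0.025 without single libraries, the latter without the 10HDA library of culture 1, and that of Grm3 to Grm5 from -0.37 to -0.25 without single libraries or cultures. With the replicate block, the ratios had p-values of 0.50 and 0.25 in the exact permutation test. The alternatives without culture 1 within culture, DESeq2 with a block and removal of the length trend were chosen after seeing the data. The causes were not tested. Grin2a and Grm8 had 23 to 55 counts per library, and the part of depth in their missing calls was not tested.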
